A study of Mus musculus with 6 samples.

Results

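The 8 genes described here encode transcription factors and surface or signalling proteins that mark proton-secreting epithelial cells. They are the transcription factors Foxi1, Tfcp2l1 and Dmrt2, the receptors Kit and Insrr, the membrane protein Hepacam2, the adaptor Clnk and the ammonia channel Rhcg. They were taken by name, as 8 of the 37578 genes with a deposited expression value. The samples were mouse clear cells of the epididymis (where sperm mature) from its proximal (caput), middle (corpus) and distal (cauda) regions. All 6 libraries, 2 per region, came from untreated mice aged 12 weeks that carry an EGFP transgene driven by the promoter of ATP6V1B1, which encodes the B1 subunit of the V-ATPase (the vacuolar proton pump). Cells were sorted for EGFP in 2 rounds, and each library pooled 12 epididymides. The sort therefore selects on the activity of a promoter that is itself active in this cell type, and a library is a pool rather than 1 animal.

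Clear cells acidify the lumen of the epididymis by moving V-ATPase to their apical membrane, and an acidic lumen helps to keep sperm quiescent. Intercalated cells of the kidney, ionocytes of the inner ear and airway, and clear cells share this machinery. In the mouse, Foxi1 is a forkhead transcription factor required for V-ATPase subunit expression in these cells, and loss of Foxi1 causes deafness, renal acidosis and male infertility. Tfcp2l1 is a CP2-family (grainyhead-like) factor needed in mouse kidney collecting duct for intercalated cell identity, and Dmrt2 is a DM-domain factor found in acid-secreting intercalated cells. Insrr is an orphan relative of the insulin receptor that is activated by alkaline medium, Kit is the receptor tyrosine kinase for stem cell factor, and Rhcg is a membrane channel for ammonia.

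The bases just before the start sites of a few of these genes are shown because the text below describes Foxi1 and Tfcp2l1 levels beside those of the other genes. Sequences are from RefSeq, build GRCm38.p6, while the submitters' processing notes name mm9, so no coordinate here was joined to the deposited files. Each run is the 250 bases before the start site, written 5′ to 3′ on the gene's strand. Capitals mark a match to a CP2-family pair (CCNG and again CCNG, 6 bases apart, either strand) in the first 3 and a match to a forkhead core (TGTTTAC, either strand) in Atp6v1b1. The run of capitals in Rhcg covers 2 overlapping matches.
Foxi1, chr11:34208090-34208339, minus strand: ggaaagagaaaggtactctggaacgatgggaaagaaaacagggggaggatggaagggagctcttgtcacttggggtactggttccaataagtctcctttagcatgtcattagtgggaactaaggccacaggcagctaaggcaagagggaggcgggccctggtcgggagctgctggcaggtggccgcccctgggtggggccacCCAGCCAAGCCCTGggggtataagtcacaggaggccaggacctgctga
Kit, chr5:75574737-75574986, plus strand: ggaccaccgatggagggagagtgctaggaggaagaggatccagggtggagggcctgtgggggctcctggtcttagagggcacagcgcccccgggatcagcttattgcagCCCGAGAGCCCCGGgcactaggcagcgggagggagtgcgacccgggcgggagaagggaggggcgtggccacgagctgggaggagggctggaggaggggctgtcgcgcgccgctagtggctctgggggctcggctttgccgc
Rhcg, chr7:79617658-79617907, minus strand: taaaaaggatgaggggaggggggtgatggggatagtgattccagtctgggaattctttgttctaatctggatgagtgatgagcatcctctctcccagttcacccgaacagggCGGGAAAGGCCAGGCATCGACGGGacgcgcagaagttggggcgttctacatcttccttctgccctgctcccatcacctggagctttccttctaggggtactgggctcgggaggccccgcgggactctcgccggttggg
Atp6v1b1, chr6:83742767-83743016, plus strand: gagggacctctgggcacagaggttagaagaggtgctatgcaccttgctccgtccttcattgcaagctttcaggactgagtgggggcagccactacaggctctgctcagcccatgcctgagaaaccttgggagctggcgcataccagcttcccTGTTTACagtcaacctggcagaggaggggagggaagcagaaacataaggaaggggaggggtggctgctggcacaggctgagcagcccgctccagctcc

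Promoters were found for 7 of the 8 genes, and not for Insrr. The CP2-family pair was present in 4 of the 7 (Foxi1, Dmrt2, Kit and Rhcg), against 24.7% of all 27025 promoters of the same length. The forkhead core was present in 0 of the 7, against 3.09% of all promoters, and in Atp6v1b1 it lay at bases -98 to -92 before the start site. By the RefSeq annotation of that build the 8 genes lie on chromosomes 11 (Foxi1), 1 (Tfcp2l1), 19 (Dmrt2), 5 (Kit and Clnk), 3 (Insrr), 6 (Hepacam2) and 7 (Rhcg). The motif matches are letters in a window and do not show that a factor binds there.

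Reads assigned to genes came to between 18887128 and 24700717 per library, and 15816 genes had enough reads to be tested. The libraries were not alike in composition: the 10 most abundant genes took 4.41% and 4.55% of reads in caput, then 18.93% and 19.86% in corpus, and 26.91% and 26.25% in cauda. Summed CPM (counts per library size after TMM scaling) of 9 principal cell markers, which label the neighbouring secretory epithelial cells, was 5905 and 5724 in caput against 47513 and 58292 in corpus, and 82107 and 78840.3 in cauda. Most of that was Crisp1, and without it the sum was 1529 and 2436, 4345 and 4276, and 5942 and 6431. Over the same libraries 5 V-ATPase subunits specialised to such cells (Atp6v1b1, Atp6v0a4, Atp6v0d2, Atp6v1g3 and Atp6v1c2) summed to 3775 and 3795, 924 and 1197, and 458 and 574 CPM. The sums thus ran in opposite directions, but gene by gene the principal cell markers did not move together: from caput to cauda 5 of the 9 were called higher in caput and 4 lower. Crisp1, Adam7, Aqp9 and Ggt1 were the lower ones, and Lcn5, Lcn8, Rnase10, Spint4 and Cst11 the higher ones. Several of these markers are restricted to the proximal or distal duct, so their sum does not measure the amount of principal cell RNA across regions. In bulk RNA a smaller share of clear cells and less RNA of a gene per clear cell cannot be told apart, and the part of principal cell RNA in the falls below was not tested.

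Levels are given as deposited RPKM (reads relative to gene length and to the authors' scaled library size), the scale on which genes of different length can be compared. Foxi1 was the most abundant of the 8 genes in every library, and Clnk was the least abundant. In caput the order after Foxi1 was Hepacam2, Dmrt2, Tfcp2l1, Kit, Rhcg and Insrr, and the libraries of neighbours in this order did not overlap. In corpus Dmrt2 and Hepacam2 overlapped and Rhcg stood above Kit, while in cauda the order was that of caput with Dmrt2 above Hepacam2. These orders are descriptions of 2 libraries per region, and no test was made between genes.

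**Figure D1:**
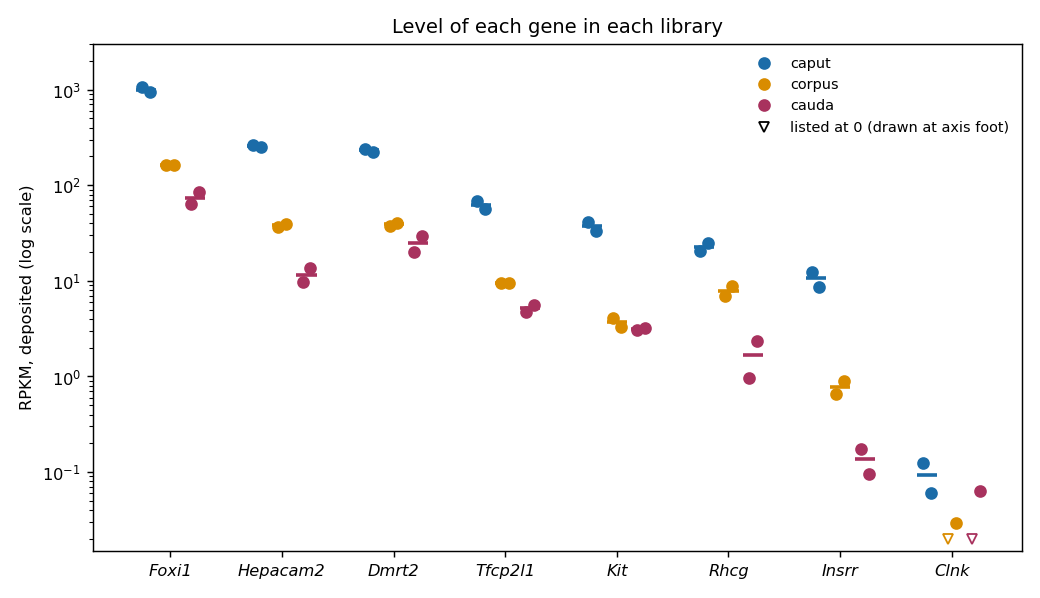
Deposited RPKM (log scale) of the 8 genes in each of the 6 libraries. Points are libraries, bars are means of 2 libraries, and open triangles mark a library listed at 0. Caput libraries lie above corpus and cauda libraries for the 7 genes other than Clnk, which rests on 13 reads in all.

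From caput to corpus 7 of the 8 genes passed the filter on low counts and all 7 were higher in caput, where 65.0% of all tested genes were called (33.2% higher in caput and 31.8% lower). The calls come from the quasi-likelihood test of edgeR, at a Benjamini-Hochberg adjusted p under 0.05 over all 15816 tested genes, and folds are between TMM-scaled libraries. The median log2 fold change of the 7 was 2.68, against 0.04 over all tested genes, and they ranged from 1.45 (Rhcg) to 3.71 (Insrr). From corpus to cauda 6 of the 7 were higher in corpus, where 35.4% of all genes were called (17.3% higher in corpus and 18.0% lower), with a median of 1.12 against 0.0. Between the ends of the duct all 7 were higher in caput, against 66.9% of all genes called (33.9% higher and 33.0% lower), with a median of 3.68 against 0.04. Groups did not overlap for any of the 7 genes in any of these 3 comparisons. The share of all genes without overlap was not counted, so this carries little weight. Kit from corpus to cauda did not overlap either, although it was not called (edgeR adjusted p = 0.228). The comparisons share libraries, so their counts are not separate evidence.

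Direction depended on what the libraries were scaled to. Scaling by library totals moved the median of all genes to 0.63, 0.27 and 0.9 for the 3 comparisons and kept all 7 genes on the same side. When libraries were instead scaled to the geometric mean count of the 5 specialised V-ATPase subunits, the 7 genes had a median of 0.82 from caput to corpus and 0.7 from caput to cauda, but -0.01 from corpus to cauda. A value of 0 on that scale means that a gene fell as much as the pump subunits. Atp6v1c2 changed little along the duct (0.78 from caput to cauda), and without it the median was 0.48, -0.23 and 0.14 for caput against corpus, corpus against cauda and caput against cauda. That last choice was made after seeing the data.

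Foxi1 is the forkhead factor of the set. Its RPKM was 1053 and 946 in caput, then 161 and 162 in corpus, and 63.0 and 84.9 in cauda. The caput libraries stood far above the rest, the corpus libraries were nearly equal, and every cauda library was below every corpus library. Ranked by RPKM among all genes, Foxi1 was in place 20 and 26 in caput against 450 and 474 in corpus, and 1169 and 901 in cauda. From caput to corpus it fell 5.93-fold (log2 2.57 ± 0.14 SE, edgeR adjusted p = 7.1e-07). A further fall of 2.18-fold followed from corpus to cauda (log2 1.12 ± 0.13, edgeR adjusted p = 0.000268), which on the V-ATPase subunit scale was -0.01 (adjusted p = 0.956). Between caput and cauda the difference was 12.9-fold (log2 3.69 ± 0.14, edgeR adjusted p = 9.44e-08).

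Tfcp2l1, the CP2-family factor, was measured at 68.6 and 57.1 RPKM in caput, then 9.42 and 9.40 in corpus, and 4.76 and 5.57 in cauda. The caput libraries were again the high ones, and corpus and cauda did not overlap. It fell 6.39-fold from caput to corpus (log2 2.68 ± 0.11, edgeR adjusted p = 7.79e-08) and 1.82-fold from corpus to cauda (log2 0.86 ± 0.11, adjusted p = 0.000229). On the V-ATPase subunit scale the second step was -0.28 (adjusted p = 0.203).

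Dmrt2, the DM-domain factor, gave 239 and 224 RPKM in caput against 37.9 and 40.3 in corpus, and 20.0 and 29.8 in cauda. Relative to their level the cauda libraries differed most from each other, and the higher of them was still below both corpus libraries. Dmrt2 fell 5.67-fold from caput to corpus (log2 2.50 ± 0.17, edgeR adjusted p = 1.54e-05). Its second step was 1.57-fold (log2 0.65 ± 0.17, edgeR adjusted p = 0.0241), the call was lost without corpus replicate 1 (adjusted p = 0.0902), without corpus replicate 2 (0.134) or with no filter on low counts (0.09), and on the V-ATPase subunit scale it was -0.49 (0.0246).

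Kit, the receptor for stem cell factor (Kitl), fell almost wholly before the corpus. Its RPKM was 41.5 and 33.4 in caput, then 4.10 and 3.30 in corpus, and 3.05 and 3.22 in cauda. Corpus and cauda lay close together, with the lower corpus library just above the higher cauda library. The first step was 9.7-fold (log2 3.28 ± 0.13, edgeR adjusted p = 1.27e-07). From corpus to cauda the log2 difference was 0.23 ± 0.14 (edgeR adjusted p = 0.228), which passed the test under scaling by library totals (0.51, adjusted p = 0.0207) and was -0.9 on the V-ATPase subunit scale (0.000306). Mast cells also carry Kit, and of 9 mast cell markers 7 had no read in any library, Cpa3 and Cma1 among them. The sum of the 9 was 1.64 and 2.53 CPM in caput against 0.28 and 0.101 in corpus, and 1.80 and 3.54 in cauda, nearly all of it Hdc. The caput and cauda sums overlapped, and both lay above the corpus sums. The 1 marker tested was higher in caput than in corpus (log2 3.42) and lower in corpus than in cauda (-3.8). The part of mast cell RNA in the Kit values was not tested.

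Insrr, the alkali-sensing receptor, had the widest range of the 7 tested genes of the set on TMM-scaled libraries. It was measured at 12.5 and 8.73 RPKM in caput, then 0.653 and 0.895 in corpus, and 0.176 and 0.0954 in cauda. Each region was separate from the next, and the cauda values rest on 19 and 11 reads. It fell 13.1-fold from caput to corpus (log2 3.71 ± 0.24, edgeR adjusted p = 3.6e-06) and 5.73-fold from corpus to cauda (log2 2.52 ± 0.36, adjusted p = 0.00101). From caput to cauda the fold was 74.9 (log2 6.23 ± 0.31, edgeR adjusted p = 5.88e-07), place 124 from the top of the 15816 tested genes. On the scale of the V-ATPase subunits these steps were 1.87, 1.33 and 3.21, all in the same direction. The size of the fall changed with the method. By limma on log2(RPKM + 1) it was log2 3.34 from caput to cauda, below Hepacam2 (4.36), and 0.64 from corpus to cauda. Over the alternatives other than scaling to clear cell genes these values ran from 3.34 to 7.08 and from 0.64 to 3.01.

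Hepacam2, an immunoglobulin-family membrane protein, stood at 261 and 250 RPKM in caput against 36.9 and 39.3 in corpus, and 9.77 and 13.5 in cauda. The regions did not overlap, and within caput and within corpus the libraries lay close together. Its falls were 6.43-fold (log2 2.68 ± 0.13, edgeR adjusted p = 4.37e-07) and 3.26-fold (log2 1.71 ± 0.13, adjusted p = 2.74e-05). The V-ATPase subunit scale kept both, at 0.83 and 0.57, and without Atp6v1c2 the second was 0.35 (adjusted p = 0.158).

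Rhcg, the ammonia channel, was the 1 gene whose fall was larger in the second step by its fitted values. RPKM was 20.4 and 24.8 in caput, then 6.95 and 8.83 in corpus, and 0.972 and 2.37 in cauda. The cauda libraries were far apart and both low. From caput to corpus it fell 2.74-fold (log2 1.45 ± 0.32, edgeR adjusted p = 0.00892), a call lost without corpus replicate 1 (1.28, adjusted p = 0.0642) or with no filter on low counts (0.0593), and -0.38 on the V-ATPase subunit scale (0.163). From corpus to cauda it fell 4.67-fold (log2 2.22 ± 0.38, edgeR adjusted p = 0.00656), with an adjusted p of 0.057 when no filter was used. The log2 value was 3.01 without cauda replicate 2 (adjusted p = 0.00039) and 1.73 without cauda replicate 1 (0.00229). From caput to cauda it was 3.68 ± 0.37 (edgeR adjusted p = 0.000297), and 4.47 without cauda replicate 2 (1.38e-05).

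Clnk, an adaptor of the Slp76 family, was barely detected and did not pass the filter. It had 7 and 3 reads in caput against 0 and 1 in corpus, and 0 and 2 in cauda, 13 of 132107511 reads in genes. The ratio of caput to cauda reads, scaled by library size, was 2.8 with an exact 95% interval from 0.597 to 26.3, and that of caput to corpus was 5.93 (0.843 to 257). A regional difference was not detectable at this depth. The intervals cover counting error only.

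Whether the falls before and after the corpus were of equal size was tested in 1 contrast over the 3 regions (the caput-to-corpus step minus the corpus-to-cauda step, log2). Of the 7 genes 5 had a larger first step, where 48.1% of all genes were called in that contrast, 23.3% in the same direction. Kit differed most (3.04 ± 0.24, edgeR adjusted p = 1.46e-05), and 93.3% of its log2 fall came before the corpus. Dmrt2 (1.85 ± 0.30, adjusted p = 0.00217), Tfcp2l1 (1.82 ± 0.19, 4.65e-05) and Foxi1 (1.44 ± 0.23, 0.00105) followed, with 79.4%, 75.7% and 69.6% of the fall in the first step. Hepacam2 had 61.2% (0.98 ± 0.22, edgeR adjusted p = 0.00705), a call lost without corpus replicate 1 (0.86, 0.0921) or corpus replicate 2 (1.07, 0.0514).

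Insrr and Rhcg did not pass in the main test of that contrast, which used all 6 libraries. For Insrr the difference of steps was 1.19 ± 0.55 (edgeR adjusted p = 0.112), and 1.42 without caput replicate 2. It was called under library totals (1.51, edgeR adjusted p = 0.0424) and by limma on log2(RPKM + 1) (2.05, 0.00114) or log2(RPKM + 0.1) (1.71, 0.0241). The added 1 exceeds every Insrr RPKM in corpus and cauda, and the added 0.1 is near those in cauda. By limma its second step was 0.64 and 1.9, against 2.52 in the main test. For Rhcg the difference of steps was -0.77 ± 0.59 (edgeR adjusted p = 0.333), with 39.5% of the fall before the corpus. It was -1.56 without cauda replicate 2, and it was called on the V-ATPase subunit scale (-1.47, edgeR adjusted p = 0.00368). On that scale the Foxi1 difference of steps was 0.72 (adjusted p = 0.0794) and the Hepacam2 one 0.27 (0.584), while Kit (2.3), Dmrt2 (1.14) and Tfcp2l1 (1.1) were still called.

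**Figure D2:**
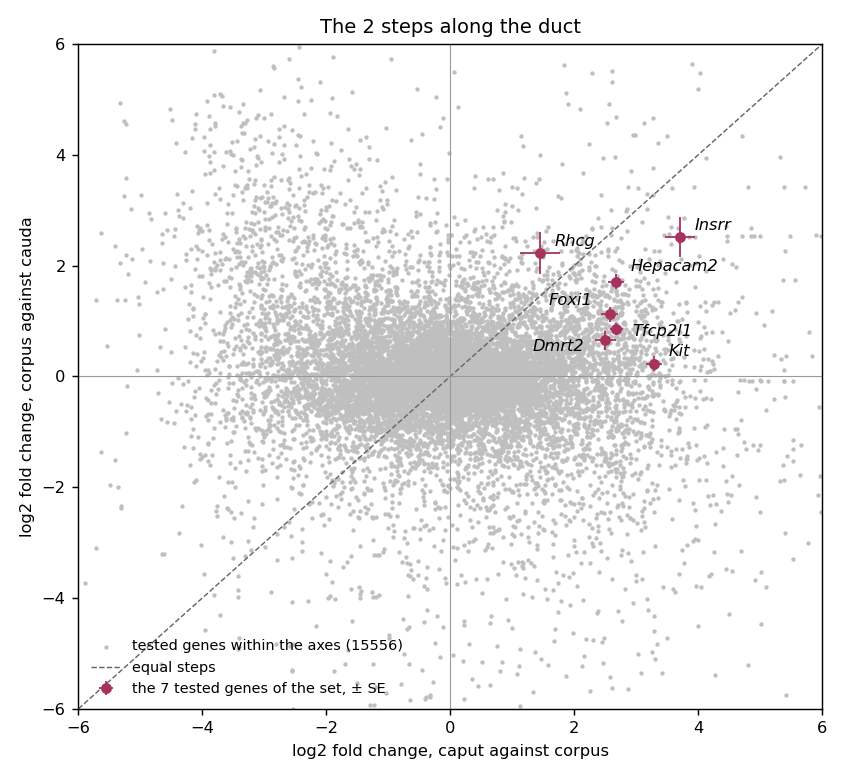
Log2 fold change from caput to corpus (x) against that from corpus to cauda (y), both from TMM-scaled libraries and both using the corpus libraries. Grey points are the 15556 tested genes within the axes, coloured points are the 7 tested genes with their SE, and the dashed line marks equal steps. Kit lies near 0 on the y axis and Rhcg alone lies above the line, and on the V-ATPase subunit scale the second step of Foxi1, Tfcp2l1, Dmrt2 and Kit turns negative.

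A ratio to Foxi1 within each library does not depend on how libraries are scaled to each other. Tfcp2l1 was at 6.51% and 6.03% of Foxi1 RPKM in caput, then 5.85% and 5.80% in corpus, and 7.55% and 6.55% in cauda. Dmrt2 was at 22.7% and 23.7%, 23.5% and 24.9%, and 31.7% and 35.0%, so that only its cauda libraries stood apart from caput. Hepacam2 was at 24.8% and 26.4% in caput against 22.9% and 24.2% in corpus, and 15.5% and 15.9% in cauda, the cauda libraries below all others.

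Insrr fell from 1.19% and 0.922% of Foxi1 in caput to 0.405% and 0.552% in corpus and 0.279% and 0.112% in cauda. Kit was lowest in corpus, with 3.94% and 3.53% in caput, then 2.55% and 2.03% in corpus, and 4.83% and 3.79% in cauda. Rhcg was highest in corpus, with 1.93% and 2.62%, 4.32% and 5.45%, and 1.54% and 2.80%. Kit and Rhcg thus had opposite shapes against Foxi1, and for both the corpus libraries did not overlap those of the other regions. The share of all genes without overlap in their ratio to Foxi1 was not counted, so the lack of overlap carries little weight.

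The same ratios were tested by scaling libraries to the Foxi1 count, an alternative added after seeing the data that takes that count as exact. Relative to Foxi1, Insrr was higher in caput than in cauda (log2 2.5, edgeR adjusted p = 5.01e-11) and Hepacam2 likewise (0.71, 0.00212), while Dmrt2 was lower (-0.53, 0.0188). For Rhcg the caput-to-corpus value was -1.1 (edgeR adjusted p = 3.31e-05) and the corpus-to-cauda value 1.15 (9.57e-05). For Kit they were 0.71 (edgeR adjusted p = 0.00346) and -0.91 (0.000348). Tfcp2l1 did not pass in any of the 3 comparisons, with values of 0.11, -0.28 and -0.17, and a missed threshold does not show that its ratio was constant.

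**Figure D3:**
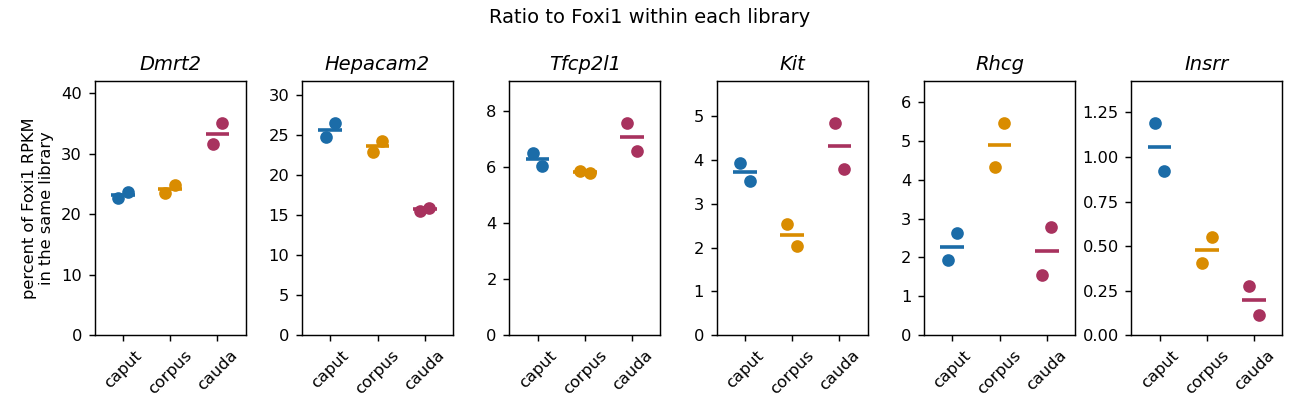
RPKM of 6 genes as a percent of Foxi1 RPKM in the same library, by region, each panel with its own axis from 0. Points are libraries and bars are means of 2 libraries. Rhcg is highest and Kit lowest in corpus, Insrr falls along the duct, and Tfcp2l1 stays between 5.80% and 7.55%.

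The genes whose profiles were most like those of the set were found by Euclidean distance over log2 CPM of the 6 libraries, each gene centred on its mean, among 8260 genes with at least 10 CPM on average. Within the set the closest pair was Foxi1 and Tfcp2l1, at 0.321, and the farthest was Dmrt2 and Insrr, at 3.14. Entpd1, an ectonucleotidase that breaks down extracellular ATP, was nearest to Foxi1 at 0.187, and Nfkb2 (0.19), Gpc4 (0.194), Slco1a5 (0.196), Avpr1a (0.212), Spats2 (0.223), Pla2r1 (0.265) and Clcn5 (0.266) came next, where the median over all genes searched was 3.83. Avpr1a is a vasopressin receptor found in kidney intercalated cells, and Clcn5 is an endosomal chloride-proton exchanger. Muc20 (0.0935), Serpinb9 (0.136) and Nfkb2 (0.155) lay closest to Tfcp2l1, and Aldh3a2 (0.182), Lef1 (0.217) and Il28ra (0.22) to Dmrt2. Those nearest to Hepacam2 were Rgl3 (0.25), Pdlim4 (0.251) and Krt7 (0.252).

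Neurl1a (0.161) and Lnx1 (0.286), both ubiquitin ligases, and Pde4b (0.291), a cyclic AMP phosphodiesterase, were nearest to Kit. Lnx1 lies on the same chromosome as Kit, at chr5:74592447-74703043 against chr5:75574987-75656722 (RefSeq, GRCm38.p6). For Insrr the nearest genes were Ltbp2 (0.709), Prss23 (0.755) and P4ha2 (0.945), with a median of 6.21 over all genes. For Rhcg they were Adamts15 (0.479), Plb1 (0.565) and Rcan2 (0.571), with a median of 3.98. A small distance describes 6 shared libraries and nothing more.

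Of 13 genes known from kidney intercalated cells, 9 were tested. All 9 were higher in caput than in cauda, against 33.9% of all tested genes. Of the 9, 8 were higher in caput than in corpus (33.2% of all) and 7 higher in corpus than in cauda (17.3%). Their median log2 fold change from caput to cauda was 3.5, also with Aqp6 at the floor given below. It became 0.47 on the V-ATPase subunit scale with 4 called higher and 2 lower. On that scale 403 of all 15816 genes were called higher and 13904 lower. Adgrf5 (listed under its older symbol Gpr116), an adhesion receptor of lung and of intercalated cells, fell from 41.3 and 38.0 RPKM in caput to 4.09 and 4.14 in corpus and 1.48 and 1.86 in cauda (log2 4.5 ± 0.12 from caput to cauda, edgeR adjusted p = 5.18e-09). Kcnma1, the pore of the large-conductance potassium channel, had 37.1 and 32.1, 5.22 and 4.93, and 2.02 and 2.22 RPKM (3.96 ± 0.11, 6.61e-09), and Car12, a membrane carbonic anhydrase, changed by 3.5 ± 0.14 (5.26e-08).

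Car2, the cytosolic carbonic anhydrase, was highest in corpus. Its RPKM was 166 and 179 in caput against 439 and 498 in corpus, and 85.2 and 106 in cauda. The corpus libraries were above all others. Car2 was lower in caput than in corpus (log2 -1.5 ± 0.12, edgeR adjusted p = 5.58e-06) and higher in corpus than in cauda (2.29 ± 0.12, 2.26e-06), and it kept both directions under scaling by library totals.

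Anion exchangers of the kidney cells were low or not found. Slc4a1, the basolateral exchanger of acid-secreting intercalated cells, had no read in any library, and Slc26a4 (pendrin), the apical exchanger of base-secreting ones, had 128 reads in caput replicate 2 and none elsewhere. Slc4a9 had 102 and 164 reads in caput and 7 to 34 in the other libraries. Aqp6 is an intracellular water and anion channel of acid-secreting intercalated cells. It had 105 and 79 reads in caput, then 13 and 14 in corpus and none in cauda. With the floor set at 3 counts per group, Aqp6 was 34.4-fold higher in caput than in cauda. That value is not a lower bound, since the exact interval, at the level used for Clnk, had a lower limit of 27.7.

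Of 8 genes listed as targets of Foxi1, 6 were tested, and all 6 were higher in caput than in cauda. The share of all tested genes called in that direction was 33.9%. It was 33.2% for caput above corpus and 17.3% for corpus above cauda. Atp6v1b1, Atp6v0a4, Atp6v1a and Atp6v1e1 were higher in both steps, while Car2 was lower in the first and Slc4a9 was not called in the second (0.25 ± 0.67, edgeR adjusted p = 0.809). On the V-ATPase subunit scale 2 were higher and 2 lower from caput to cauda, against 403 and 13904 of all 15816 genes. The 2 higher ones, Atp6v1b1 (0.95) and Atp6v0a4 (0.86), are themselves part of that scale. Atp6v1b1, which encodes the B1 subunit, had 178 and 160 RPKM in caput against 27.5 and 33.7 in corpus, and 8.56 and 12.5 in cauda (log2 2.41 ± 0.17 and then 1.54 ± 0.18, edgeR adjusted p = 1.51e-05 and 0.000599). Atp6v0a4, the a4 subunit of the proton channel, changed by 3.88 ± 0.20 from caput to cauda (edgeR adjusted p = 2.25e-07). Atp6v1a, the catalytic subunit, changed by 2.69 ± 0.10 (edgeR adjusted p = 2.62e-08). The sort selects on the activity of the ATP6V1B1 promoter in the transgene, and the part of the sort in these values was not tested.

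For the lists that follow, the V-ATPase subunit scale placed nearly all genes lower in caput than in cauda, as it did for the median of all genes (-2.97). Of all 15816 genes it called 403 higher and 13904 lower. On that scale 1 of 13 Notch genes was higher and 10 lower, 0 of 25 Kit signalling genes higher and 24 lower, 0 of 15 insulin receptor family genes higher and 13 lower, 0 of 5 ammonia-handling genes higher and 5 lower, and 0 of 15 paralogs higher and 13 lower. The counts below are on TMM-scaled libraries. Each is to be read against the 66.9% of all genes called from caput to cauda, with 33.9% of all genes higher in caput and 33.0% lower.

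The Notch pathway, which in mouse kidney separates principal from intercalated cells, changed in both directions. Of 13 tested genes, with Elf5 counted among them, 5 were higher and 7 lower in caput than in cauda. Under library totals 6 were higher and 4 lower, against 9501 and 2564 of all 15816 genes. Ligands were on the high side of caput: Jag1 had 2.38 and 2.52 RPKM in caput and 0.311 to 0.367 in the other libraries (log2 2.87 ± 0.21, edgeR adjusted p = 1.63e-06), Dll4 changed by 4.28 ± 0.31 (1.97e-06) and Dll1 by 3.78 ± 0.41 (9.06e-05). Those 3 kept their direction under library totals.

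The 4 receptors and 2 target genes lay the other way. From caput to cauda Notch1 (-1.05 ± 0.24, edgeR adjusted p = 0.00596), Notch2 (-1.63 ± 0.23, 0.000189), Notch3 (-1.2 ± 0.18, 0.000299) and Notch4 (-1.3 ± 0.29, 0.00308) were all lower in caput. Under library totals only Notch2 among them passed (-0.77, adjusted p = 0.0141), and the others were -0.19, -0.34 and -0.44. Heyl, a target of Notch signalling, was lower in caput by either scaling (-2.73 ± 0.41, edgeR adjusted p = 0.000268, and -1.87). Hes1, a repressor induced by Notch signalling, had 20.7 and 21.7 RPKM in caput, then 48.3 and 37.7 in corpus, and 89.2 and 78.4 in cauda (log2 -2.05 ± 0.12 from caput to cauda, edgeR adjusted p = 9.13e-07, and -1.19 under library totals). Notch3 was lower in caput than in corpus by -2.52 ± 0.18 (edgeR adjusted p = 2.05e-06) and higher in corpus than in cauda by 1.32 ± 0.17 (0.000358). Elf5, listed for kidney principal cells, had 4 to 12 reads in caput and corpus libraries and 90 and 184 in cauda. The summed CPM of principal cell markers also rose towards cauda, although 5 of those 9 genes were higher in caput, and the part of principal cell RNA in the values of Hes1 and Elf5 was not tested.

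Of 25 tested genes of Kit signalling 14 were higher and 6 lower in caput than in cauda, where 33.9% of all genes were higher and 33.0% lower. Under library totals 22 were higher and 2 lower, where 9501 of all 15816 genes were higher and 2564 lower. Kitl, the ligand of Kit, ran opposite to its receptor, with 0.257 and 0.411 RPKM in caput against 0.916 and 0.952 in corpus, and 2.96 and 2.42 in cauda (log2 -3.07 ± 0.26 from caput to cauda, edgeR adjusted p = 4.49e-06, and -2.21 under library totals). Lyn, a Src-family kinase, was higher in caput than in corpus by 1.9 ± 0.13 (edgeR adjusted p = 1.42e-06), and Mapk3 (ERK1) was higher by 1.55 ± 0.12 (2.59e-06). Ptpn6, a phosphatase that damps Kit signalling, was lower in caput than in corpus (-1.32 ± 0.10, edgeR adjusted p = 3.86e-06), and Stat5a was lower in corpus than in cauda (-1.08 ± 0.09, 1.58e-05). Jak2, a kinase upstream of Stat5a, was also lower in corpus than in cauda (-0.77 ± 0.08, edgeR adjusted p = 0.000119), and Akt1 was higher in caput than in cauda (1.35 ± 0.10, 1.78e-06). These 4 kept the directions given under library totals.

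Clnk itself was at the limit of detection, and its listed partners ranged from Grap2, with 0 to 15 reads per library and not tested, to Plcg2, with 364 to 15599. Of 11 tested partners 5 were higher in caput than in cauda and 0 were lower, where 33.9% of all genes were higher and 33.0% lower. Under library totals 8 were higher, as were 9501 of all 15816 genes. Blnk, the B-cell relative of Clnk, had 53.8 and 55.4 RPKM in caput, then 10.7 and 11 in corpus, and 6.18 and 6.12 in cauda (log2 3.09 ± 0.08, edgeR adjusted p = 5.08e-09). Plcg2, a phospholipase that such adaptors recruit, had 112 and 98.2, 12.6 and 11.8, and 4.88 and 6.44 RPKM (4.14 ± 0.13, 2.93e-08), and Vav3, an exchange factor for small GTPases, changed by 3.25 ± 0.11 (2.16e-08). Blnk and Plcg2 are also B-cell genes, and 9 lymphocyte markers together summed to 2.52 and 23.3 CPM in caput against 21.8 and 32.9 in corpus, and 4.07 and 19.4 in cauda, with no order along the duct. On the V-ATPase subunit scale 1 of the 11 partners was higher and 7 were lower in caput than in cauda. Of all 15816 genes 403 were higher and 13904 lower on that scale.

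The 2 closest relatives of Insrr did not pass the test between caput and cauda, and their difference from Insrr was not tested. Insr, the insulin receptor, had 7.14 and 6.38 RPKM in caput, then 7.12 and 6.83 in corpus, and 7.46 and 5.41 in cauda, with a log2 difference of 0.01 ± 0.14 from caput to cauda (edgeR adjusted p = 0.97) that became 0.87 under library totals (0.000318). Igf1r, the IGF receptor, differed by 0.49 ± 0.25 (edgeR adjusted p = 0.115). Of 15 tested genes of this family and its ligands, binding proteins and adaptors 4 were higher and 3 lower in caput than in cauda. Of all genes 66.9% were called in that comparison. Under library totals 7 of the 15 were higher and 2 lower, against 9501 and 2564 of all 15816 genes. The higher ones included Irs2, an insulin receptor substrate (1.68 ± 0.14, edgeR adjusted p = 9.65e-06), and Grb10, an adaptor that inhibits the receptor (2.35 ± 0.31, 0.000101). Grb14, its close relative, was lower in caput (-1.99 ± 0.32, edgeR adjusted p = 0.000424). Among the binding proteins Igfbp7 was lowest in corpus, with caput above corpus (1.76 ± 0.10, edgeR adjusted p = 4.89e-07) and corpus below cauda (-1.13 ± 0.10, 3.01e-05), and Igfbp5 was lower in corpus than in cauda (-2.73 ± 0.75, 0.0356).

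Of 5 tested ammonia-handling genes 3 were higher in caput than in cauda and 0 were lower, where 33.9% of all genes were higher. Under library totals all 5 were higher, as were 9501 of all 15816 genes. Rhbg, the basolateral relative of Rhcg in kidney, had 20.6 and 21.4 RPKM in caput against 9.51 and 11.5 in corpus, and 4.87 and 6.06 in cauda. It fell by equal fitted steps of 0.94 (log2, SE 0.14 and 0.15, edgeR adjusted p = 0.000245 and 0.000962). Glul, glutamine synthetase, which consumes ammonia, was 0.36 ± 0.08 higher in caput than in cauda (edgeR adjusted p = 0.00313). Rhag had 2 reads in all libraries.

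Paralogs of the 8 genes moved in both directions or were hardly detected. Foxi2 had 0 reads and Foxi3 had 1, and Dmrt1 had 0. Of 15 tested paralogs 6 were higher and 3 lower in caput than in cauda, and under library totals 10 were higher and 3 lower. Over all genes 33.9% were higher and 33.0% lower, and under library totals 9501 and 2564 of 15816, so the share of paralogs called was near that of all genes. Among relatives of Tfcp2l1, Tfcp2 differed by 0.75 ± 0.13 (edgeR adjusted p = 0.000578), Ubp1 by 0.13 ± 0.09 (0.221) and Grhl1 by -1.78 ± 0.17 (9.93e-06). Grhl1 had 2.19 and 1.95 RPKM in caput, then 1.30 and 1.36 in corpus, and 6.01 and 7.55 in cauda. Grhl2, another grainyhead-like factor of epithelia, was 1.01 ± 0.12 higher in caput than in corpus (edgeR adjusted p = 6.26e-05).

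**Figure D4:**
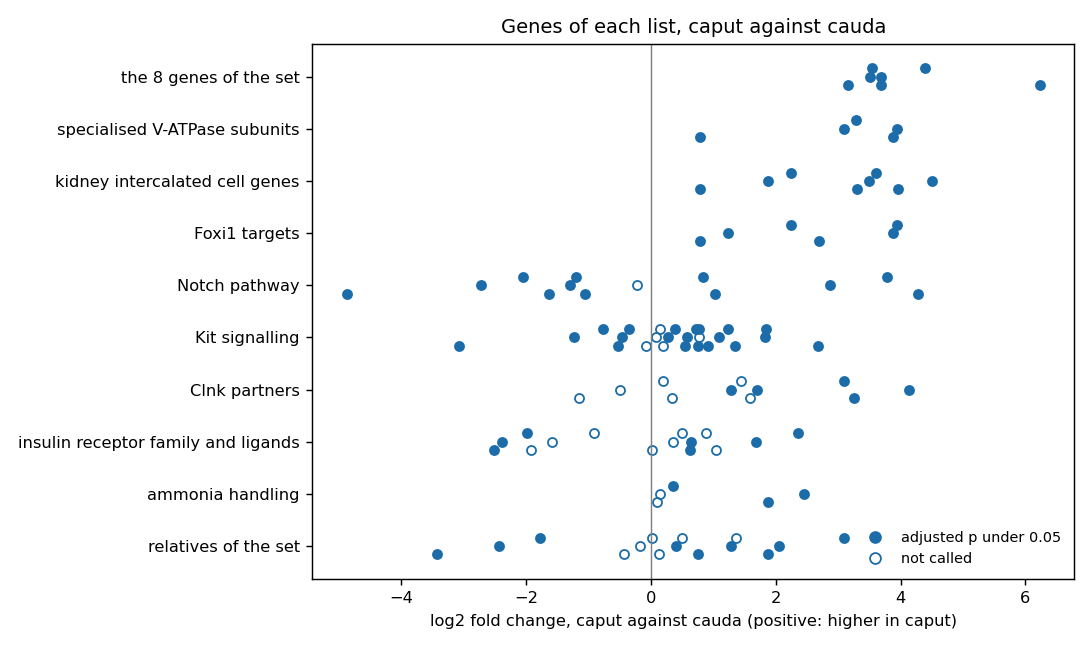
Log2 fold change from caput to cauda (positive is higher in caput) of tested genes in each list, from TMM-scaled libraries. Filled points passed an adjusted p under 0.05 and open points did not, and genes with 3 or fewer reads in the cauda libraries together are not drawn. The 7 genes of the set lie between 3.15 and 6.23, while the Notch, Kit signalling and insulin receptor lists spread to both sides. On the V-ATPase subunit scale every list shifts to the left.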

How the data were processed

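RNA of sorted clear cells was isolated with the PicoRNA kit, with Clontech SMARTer v4 libraries run on a HiSeq2500, per the labels. The submitters' processing notes name STAR, HTSeq, edgeR and the build mm9, with versions not given in the sources used here. Read counts per gene were deposited by the authors for each library, without strand per the file names, so that reads of antisense or overlapping genes are not separated. The RPKM values the authors deposited equal those counts divided by the deposited gene length (unit "other") and by library sizes times factors of 0.774 to 1.387. Reads without a unique position (33.11% to 38.59% of records), reads in no feature (6.67% to 9.48%) and ambiguous reads (1.39% to 1.83%) were left out.

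The tests used edgeR 4.0.16 under R 4.3.3, with filterByExpr by region, TMM factors (1.381 and 1.415 in caput, 0.946 and 0.911 in corpus, 0.761 and 0.78 in cauda), and robust two-sided quasi-likelihood F tests. All 6 libraries entered, region was the only term, and this left 3 residual degrees of freedom. SE is approximate, being the log2 fold change over the root of F. With 2 against 2 libraries an exact two-sided permutation test could not go below 0.333. Replicates differed by more than sampling noise (chi-square per degree of freedom 9.57 to 17.18), and since no label says whether the pools came from different mice, p-values measure the spread between these libraries only. DESeq2 1.42.0 and limma 3.58.1 on log2(RPKM + 1) were alternatives, and the steps were tested on simulated data. Intervals and floors (3 counts) cover counting error only.

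The members and gene lists were chosen with earlier results of these data known. Of each list, up to 3 called genes with the smallest adjusted p per comparison are named, and 1 gene that this takes is not reported here. Named outside that rule after their values were seen are Dll1, Notch1, Notch2, Notch4, Heyl, Hmx2, Atp6v1e1, Grap2, Kitl, Insr, Igf1r, Ubp1, Slc4a1, Slc4a9, Slc26a4, Aqp6, Foxi2, Foxi3, Dmrt1 and Rhag. Like profiles are the 8 genes nearest to Foxi1 and the 3 nearest to each other gene, predicted genes passed over. RefSeq promoters were searched for 2 motifs on both strands.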

Additional observations from a re-analysis of the deposited data

How the results depend on the processing

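Over the alternatives other than scaling to clear cell genes (RLE size factors, library totals, no filter, at least 10 CPM in 2 libraries, DESeq2, limma at 2 pseudocounts, only the 4 libraries compared, a gene length trend, the replicate block and leaving out each library), 427 of 441 values kept their direction and side of the threshold, 8 fell below it, 6 passed it and 0 reversed. Leaving out 1 library gave 6 to 7 of the genes called from caput to corpus, 5 to 6 from corpus to cauda, 7 from caput to cauda and 4 to 6 with unequal steps. Counts over all genes were 8424 to 9982, 3767 to 6026, 8885 to 10346 and 5255 to 7798. Library totals turned the split of calls to 8438 higher and 2972 lower, 5154 and 1735, and 9501 and 2564. The labels do not say whether equal replicate numbers mark shared mice or a batch, and same-numbered libraries deviated together weakly (correlations of 0.187, 0.162 and 0.134 between regions). With the replicate block all 28 values of the genes kept their call, and 10633, 6090, 10850 and 8080 genes were called.

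Scaling to clear cell genes reversed 23 of 80 values, and the cause was not tested. On the 5 V-ATPase subunits, Rhcg was -0.38 from caput to corpus, and Foxi1 -0.01, Tfcp2l1 -0.28, Dmrt2 -0.49 and Kit -0.9 from corpus to cauda. Without Atp6v1c2 these were -0.72, -0.23, -0.5, -0.7 and -1.11, and from caput to cauda Tfcp2l1 was -0.02, Dmrt2 -0.39 and Kit -0.05. Scaled to Foxi1, Dmrt2 was -0.06 and Rhcg -1.1 from caput to corpus, Tfcp2l1 -0.28, Dmrt2 -0.46 and Kit -0.91 from corpus to cauda, Tfcp2l1 -0.17, Dmrt2 -0.53 and Kit -0.2 from caput to cauda, and the difference of steps was -0.22 for Insrr and -0.47 for Hepacam2. From corpus to cauda 11965 genes were called on the 5 subunits, 12539 on the 4 and 11917 on Foxi1. Of the genes described, Foxi1 scaling called 3 from caput to corpus, 3 from caput to cauda and 2 with unequal steps. Over all 15816 genes it called 13881, 14672 and 9672 in those comparisons. The 4 subunits called 2 of the genes described from caput to cauda, against 14567 of all genes. Depth limits Clnk, and the 2 libraries per region limit every p.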

Other observations

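Markers of other cells that a sort of the epididymis could hold were measured beside the 8 genes, as CPM summed over each list, with replicate 1 and then replicate 2 of caput, corpus and cauda. Basal cell markers (8 genes, of which 7 were higher in caput than in cauda and 0 lower) summed to 248 and 356, 162 and 136, and 145 and 101. Over all genes 33.9% were higher in caput than in cauda and 33.0% lower. On the V-ATPase subunit scale 0 of the 8 were higher and 7 lower, against 403 and 13904 of all 15816 genes. Krt5, a keratin of basal cells, had 16.2 and 23.2 RPKM in caput, then 4.58 and 2.40 in corpus, and 5.00 and 2.71 in cauda. Mononuclear phagocyte markers summed to 23.5 and 11.5, 18.8 and 9.38, and 14.9 and 8.72. Stromal and endothelial markers summed to 610 and 658, 165 and 156, and 410 and 491, most of it Dcn (decorin, a matrix proteoglycan). Without Dcn the sum was 39.4 and 75.0, 81.1 and 68.3, and 80.0 and 114.

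Transcripts carried by sperm (7 genes such as Prm1 and Tnp1) summed to 24.6 and 163 CPM in caput against 3.14 and 5.12 in corpus, and 8.26 and 9.0 in cauda. The second caput library was the high one. The same library held all 128 reads of Slc26a4 and all 9 reads of Hmx2, a homeobox gene of kidney intercalated cells. The part of these cell types in the values of the 8 genes was not tested.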
